A study of Homo sapiens with 20 samples.

Results

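The 10 genes described here encode parts of the insulin-like growth factor (IGF) axis, together with one neighbour: the ligand gene *IGF2* and the non-coding RNA gene *H19* beside it, the receptors *IGF1R* and *INSR*, the adaptors *IRS1* and *IRS2*, and the secreted binding proteins *IGFBP1*, *IGFBP2*, *IGFBP3* and *IGFBP5*. They were taken by name, by matching each Ensembl identifier to its symbol, a rule that uses no measured value, although earlier results of these data were known when the names were chosen. All 10 were found, among 60624 identifiers in the organoid files and 60623 in the progenitor files. After a filter on low values (a mean of at least 1), 9 of the 10 were tested in organoids, without *H19*, and 8 were tested in progenitors, without *H19* and *IGFBP1*.

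IGF2 is a fetal growth hormone that binds the IGF1 receptor and the insulin receptor, both of which are tyrosine kinases at the cell surface. The activated receptors phosphorylate the scaffold proteins IRS1 and IRS2, which recruit PI3-kinase and so switch on AKT and mTOR. Binding proteins of the IGFBP family hold IGF outside the cell and set how much of it reaches a receptor. *IGF2* and *H19* are imprinted neighbours, transcribed from the paternal and the maternal chromosome respectively, and IRS2 is known for its part in the growth and survival of beta cells.

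RNA was sequenced from wild-type (WT) cells and from cells in which *ALKBH5*, an m6A demethylase of mRNA, was disrupted with CRISPR-Cpf1 (A5-KO), at 2 stages of differentiation towards the pancreas. All groups descend from MEL1, a human embryonic stem cell line that carries a GFP reporter in the insulin locus, and the study derived more than one knockout line, while the labels give only A5-KO. The human islet-like organoids (hILOs; media to day 22 in the labels, and longer in the study's methods) were not treated and gave 2 libraries for each genotype. The pancreatic progenitors (PPs; media to day 14) were given the transcription inhibitor actinomycin D (Act D) at 1 µg/ml for 0, 1, 2 or 3 h, with 2 libraries for each genotype and time, so that 8 groups gave 16 libraries. The labels do not name the cultures behind a pair of replicates, and *p*-values measure the spread between these libraries.

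The PP libraries held 30516384 to 35206514 reads, whereas the hILO values are TPM, which keep no depth. *ALKBH5* itself was at 78.8 and 81.9 TPM in WT hILOs and at 4.16 and 3.42 TPM in A5-KO hILOs, and its log2 difference in PPs lay between -2.29 and -3.60 at every time of Act D. The 8 islet endocrine markers summed to 34826 to 37118 TPM in WT hILOs and 26654 to 27866 TPM in A5-KO hILOs, and none was at 0. All 8 pancreatic progenitor markers were above 0 in PPs at 0 h, with sums of 903 to 1154 CPM in WT and 841 to 926 CPM in A5-KO. In the same libraries the 8 hepatocyte markers summed to 1092 to 1141 CPM in WT and 1898 to 1924 CPM in A5-KO, and the 10 mesenchyme markers to 120 to 128 and 211 to 215 CPM, again with none at 0. Among the 8920 genes whose mean reached 10 CPM, the replicates of WT PPs at 2 h had a median log2 gap of 0.21, against 0.07 to 0.15 in the other 7 PP groups. In bulk RNA, fewer cells of a type and less RNA per cell cannot be told apart.

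In GRCh38, *IGF2* lies on the minus strand at chr11:2129112-2158391 and *H19* on the same strand at chr11:1995166-2004552, with 124559 bases between them. *IGFBP2* (chr2:216632828-216664436, plus strand) and *IGFBP5* (chr2:216672105-216695549, minus strand) are 7668 bases apart, and *IGFBP1* (chr7:45888360-45893660, plus strand) and *IGFBP3* (chr7:45912245-45921874, minus strand) are 18584 bases apart. The receptor and adaptor genes have no such partner among the 10: *IGF1R* is at chr15:98648539-98964530 on the plus strand, *INSR* at chr19:7112255-7294414, *IRS1* at chr2:226731312-226799820 and *IRS2* at chr13:109752695-109786583, all on the minus strand. Of the 7146 exon bases of *IGF2*, 37.9% are also exon of the protein-coding gene ENSG00000284779, 20.4% of the readthrough gene *INS-IGF2* and 4.7% of the antisense gene *IGF2-AS*, so reads there can be split between genes. Antisense genes cover 7.5% of the exon bases of *IGFBP5* (*DIRC3-AS1*) and 1.4% of those of *IRS2* (ENSG00000275741), and whether strand was used in counting is not stated.

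Promoter windows in the RefSeq table (GRCh38.p14; 250 bases before to 50 after a start) were found for 8 of the 10 genes, in 10 windows, and not for *IGF2* and *IGFBP1*. The 100 bases just before the start are given for *IRS1*, *IRS2* and *INSR*, which after Act D fell in A5-KO PPs, and for *IGFBP5*, which had the largest difference between genotypes in hILOs. They are written 5′ to 3′ on the gene's strand, and capitals mark GGGCGG, the box bound by Sp1-type factors, on either strand, and CAAAACA, a FOXO-type insulin response motif, on either strand.
IRS1 (chr2:226799821-226799920, minus): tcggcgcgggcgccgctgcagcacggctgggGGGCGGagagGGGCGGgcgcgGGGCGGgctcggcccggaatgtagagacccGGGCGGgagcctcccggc
IRS2 (chr13:109786584-109786683, minus): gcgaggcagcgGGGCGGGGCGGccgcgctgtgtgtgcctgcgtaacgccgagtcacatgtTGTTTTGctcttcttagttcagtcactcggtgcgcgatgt
INSR (chr19:7294415-7294514, minus): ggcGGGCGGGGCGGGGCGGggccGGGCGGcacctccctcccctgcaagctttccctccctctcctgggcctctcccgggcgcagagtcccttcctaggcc
IGFBP5 (chr2:216695550-216695649, minus): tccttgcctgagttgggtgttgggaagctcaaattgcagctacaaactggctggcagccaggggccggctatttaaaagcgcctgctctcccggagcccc
These stretches hold GGGCGG 4 times in *IRS1*, 2 times in *IRS2*, 4 times in *INSR* and not in *IGFBP5*, and neighbouring copies can share bases. Only *IRS2* had CAAAACA, which lies on the opposite strand and so reads TGTTTTG on the printed strand, beginning 40 bases before the start. In the whole window of 300 bases, GGGCGG was found in 45% of 35114 promoters and CAAAACA in 4.92%. TATAAA (11.5% of promoters) and GTAAACA (3.42%), searched on both strands, were in none of the 10 windows of these genes. A match is a description of the letters, not of binding.

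Levels were compared between genes per length, in TPM for hILOs and in CPM per kb of merged exon for PPs at 0 h. In WT hILOs the order was *IGF2* (mean of 2335 TPM), *IGFBP3* (1346), *IGFBP2* (312), *IGFBP5* (110 TPM, from 107 and 112), *IGFBP1* (23.3), *IRS2* (12.1), *INSR* (11.7), *IRS1* (10.2), *IGF1R* (5.78) and *H19* (0.096). No neighbours in this order overlapped between their 2 libraries, although *IRS2* and *INSR* were as close as 11.8 and 11.7 TPM. *IGF2* ranked at 32 among the 31784 genes above 0 in WT hILOs and at 65 of 31970 in A5-KO hILOs, where *IGFBP3* stood above it at 58. In WT PPs at 0 h, *IGF2* (286 CPM per kb) and *IGFBP2* (244) stood far above *IGFBP3* (31.1), *IGFBP5* (29.4), *IRS1* (12.7), *IRS2* (7.87), *INSR* (5.89) and *IGF1R* (5.42). In A5-KO PPs *IRS2* came after *INSR* and *IGF1R*, at 4.31 CPM per kb against 4.94 and 4.88. The ligand thus stood at a far higher level per length than its receptors at both stages. *IGF1*, the gene of the other IGF ligand, had no read in any of the 16 PP libraries, over which 3 reads would be 0.0057 CPM.

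For each comparison a gene was called when its Benjamini-Hochberg adjusted *p* from limma, over all genes tested, was below 0.05 and, between genotypes, its change was over 1.5-fold. In hILOs, 3 of the 9 tested genes were called lower in A5-KO (*IGF2*, *IGFBP2* and *IGFBP5*), against 4.09% of 17300 genes, and 1 was called higher (*IGFBP1*), against 2.7%. In PPs at 0 h, 1 of 8 was called lower (*IRS2*), against 1.13% of 13911 genes, and none higher, against 1.57%. During Act D, none of the 8 was called at 1 h in either direction (1.24% of 13620 genes were called lower and 3.05% higher), with 3 lower and 1 higher at an unadjusted limma *p* below 0.05. On the whole reads, edgeR and DESeq2 each called 1 lower at that time. The shares of all genes at the unadjusted limit, and in edgeR and DESeq2, are not given here. These counts are therefore not set against all genes. At 2 h and at 3 h, 2 were called lower, *IRS1* and *IRS2*, against 4.85% and 19.1% of all genes, and none higher, against 2.69% and 1.23%. No member was called both in hILOs and in PPs, but the difference between the stages was not tested. The median log2 difference of the tested members was -0.18 in hILOs (all genes -0.06), -0.30 in PPs at 0 h (all genes 0.03), -0.18 at 1 h (0.03), -0.43 at 2 h (-0.12) and -0.13 at 3 h (-0.14). With 2 libraries against 2, an exact permutation test could not give a two-sided *p* below 0.33, so the calls rest on the spread that limma shares across genes. For the same reason, genotypes whose libraries do not overlap are described below without a test. The share of all genes without overlap was not computed.

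**Figure D1:**
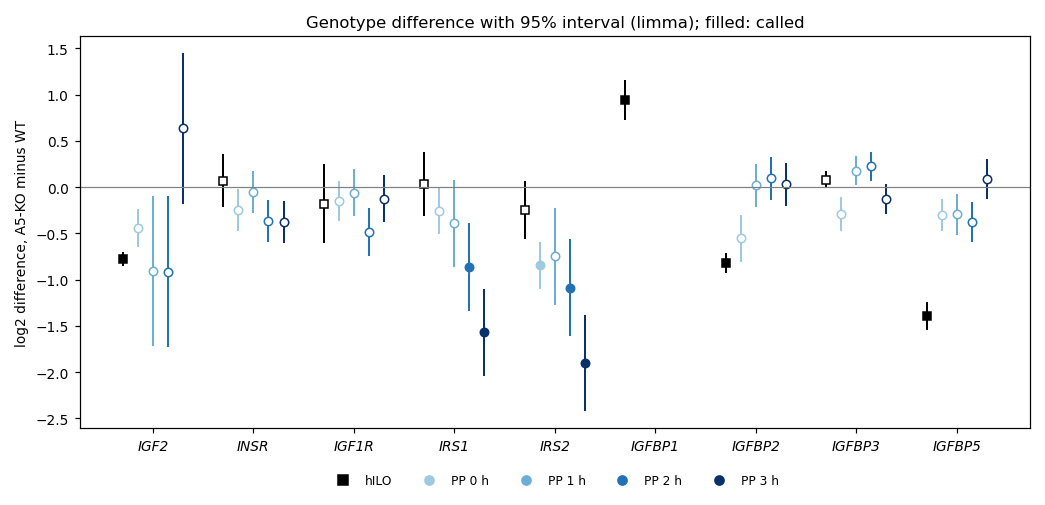
log2 difference of A5-KO minus WT for the 9 tested genes (symbols, with 95% intervals from limma) in hILOs and in PPs after 0 to 3 h of Act D. Filled symbols are called, which needs an adjusted *p* below 0.05 and over 1.5-fold; *IRS1* and *IRS2* reach -1.57 and -1.90 in PPs at 3 h, and *IGFBP5* has the lowest value in hILOs at -1.40.

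*IGF2*, the ligand, was lower in A5-KO hILOs. Its level was 2331 and 2339 TPM in the WT libraries and 1349 and 1375 TPM in the A5-KO libraries. Both A5-KO libraries lay below both WT libraries, a fall of 0.78 on the log2 scale (SE 0.02, adjusted *p* = 0.0021) or 1.71-fold. The overlapping genes went the same way: *INS-IGF2* had 2418 and 2467 TPM in WT, against 1328 and 1325 TPM in A5-KO, and ENSG00000284779 was at 1933 TPM in both WT libraries and at 1096 and 1118 TPM in A5-KO. *IGF2-AS*, on the other strand, was at 35.3 and 35.2 TPM in WT, against 15.6 and 14.4 TPM in A5-KO (log2 difference -1.18, SE 0.08, adjusted *p* = 0.0062). How StringTie shared reads among these genes cannot be read from the files, and the kit's strand is not stated. *INS* (insulin), which marks beta cells, fell by 0.77 on the log2 scale (SE 0.02, adjusted *p* = 0.0021) in the same libraries. Of the 8 islet endocrine markers, 4 were called lower there (*INS*, *GCG*, *SST* and *PPY*) and 1 higher (*NEUROD1*, log2 difference 0.75, adjusted *p* = 0.0028). Of the 12 housekeeping genes, 3 were called lower there, *PGK1*, *GAPDH* and *HPRT1*, and their part in the *IGF2* difference was not tested. Beside these 2 lists, 4.09% of all genes were called lower and 2.7% higher in hILOs.

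In PPs the *IGF2* libraries were less even. At 0 h the WT libraries were at 1998 and 2083 CPM and the A5-KO libraries at 1365 and 1647 CPM, a log2 difference of -0.44 (SE 0.09, adjusted *p* = 0.022). The genotypes did not overlap, but the change was 1.36-fold and so not called. At 1 h the values were 2337 and 2525 CPM in WT and 2023 and 830.2 CPM in A5-KO, and at 2 h 3155 and 4325 CPM in WT and 2058 and 1869.7 CPM in A5-KO. At 3 h WT had 3128 and 1067 CPM, and A5-KO had 2964 and 2713 CPM, between the WT libraries. Replicates of *IGF2* thus stood apart in A5-KO at 1 h, by 1.28 on the log2 scale, and in WT at 3 h, by 1.55, further apart than 99.9% and 99.8% of 8920 genes in the same pairs. The log2 difference was -0.91 at both 1 h and 2 h (SE 0.38; adjusted *p* = 0.16 and 0.12) and 0.63 at 3 h (adjusted *p* = 0.23). Without the 2 lower libraries, 1 from A5-KO at 1 h and 1 from WT at 3 h, it was -0.26 at 1 h and -0.14 at 3 h. The difference at 2 h, -0.91, could not move, because each group has its own mean and no 2 h library was left out. These 2 libraries were left out because *IGF2* was low in them, a choice made after the data were seen. That choice itself narrows the spread of *IGF2*, so this fit adds no test. *INS-IGF2* and ENSG00000240801, which overlap *IGF2* on the same strand, were listed at 0 in all 16 PP files, and so was *INS* in 14 of them. ENSG00000284779, which shares 37.9% of the *IGF2* exon bases, had 3 reads in each of the 2 lower libraries named above. It was at 0 in the other PP libraries, and its part in the low *IGF2* values was not tested.

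*MIR483*, a microRNA gene within *IGF2*, gave 97 reads over the 8 WT PP libraries and 44 over the 8 A5-KO libraries. At 0 h it was at 1.32 and 1.18 CPM in WT and 0.49 and 0.70 CPM in A5-KO, and after Act D no library was above 0.16 CPM. These are reads of the precursor region in a library of long RNA and do not measure the mature microRNA. *IGF2-AS* went down with Act D in A5-KO, with a slope of -0.51 per h (SE 0.08, adjusted *p* = 9.3e-05) on the log2 scale. It differed between genotypes at 2 h (log2 difference -0.65, adjusted *p* = 0.038), when the WT replicates were far apart, at 17.3 and 31.2 CPM, against 14.5 and 15.0 CPM in A5-KO, and at 3 h (-0.90, adjusted *p* = 0.0022).

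*H19*, the non-coding neighbour, was close to undetected. In hILOs it was at 0.10 and 0.09 TPM in WT, 0.05 TPM in 1 A5-KO library and 0 in the other. In PPs it had 4 reads among 262815977 in WT (exact Poisson 95% interval 1.09 to 10.2) and 11 among 267104475 in A5-KO (5.49 to 19.7), and 9 of the 16 libraries had none. The highest library had 5 reads. These intervals cover counting error only. *MIR675*, a microRNA gene within *H19*, had no read in any PP library, where 3 reads over all 16 would be 0.0057 CPM. No difference between genotypes was detectable at this level, and genes with a pattern like that of *H19* could not be sought because its mean was below 10 CPM.

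The receptors *IGF1R* and *INSR* were called in no genotype comparison. *IGF1R* was at 5.88 and 5.68 TPM in WT hILOs and at 5.54 and 4.50 TPM in A5-KO hILOs, a log2 difference of -0.18 with a 95% interval from -0.59 to 0.23. *INSR* was at 11.7 and 11.6 TPM in WT, against 12.9 and 11.6 TPM in A5-KO, a log2 difference of 0.07 with an interval from -0.21 to 0.35. Misses of the limit such as these do not show that the genotypes were alike. In PPs at 0 h *IGF1R* was at 78.6 and 72.5 CPM in WT and 70.7 and 65.4 CPM in A5-KO, and *INSR* at 66.1 and 61.5 against 56.2 and 50.9 CPM (adjusted *p* = 0.42 and 0.20). At 2 h of Act D both passed the adjusted *p* below 1.5-fold, *IGF1R* with a log2 difference of -0.48 (SE 0.12, adjusted *p* = 0.015) and *INSR* with -0.37 (SE 0.10, adjusted *p* = 0.031). At 3 h *INSR* remained at -0.38 (adjusted *p* = 0.011), with 49.6 and 46.8 CPM in WT and 37.1 and 36.9 CPM in A5-KO, and *IGF1R* was at -0.13 (adjusted *p* = 0.45). *IGF2R*, which takes IGF2 up for degradation and carries no kinase, was at 288 and 306 CPM in WT and 305 and 299 CPM in A5-KO PPs at 0 h, with overlapping libraries. At 3 h it was at 381 and 323 CPM in WT and 495 and 515 CPM in A5-KO, without overlap and not called, and over the course it rose in A5-KO, with a slope of 0.26 per h (adjusted *p* = 0.0012). In hILOs it was at 28.5 and 28.9 TPM in WT, against 32.1 and 31.5 TPM in A5-KO, again without overlap and not called.

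Among the adaptors, *IRS2* was lower in A5-KO PPs before any Act D. At 0 h WT libraries held 69.6 and 58.9 CPM and A5-KO libraries 36.2 and 34.1 CPM, with no overlap, a log2 difference of -0.85 (SE 0.11, adjusted *p* = 0.0025) or 1.80-fold. The call was lost with all 16 PP libraries in one fit (adjusted *p* = 0.058). *IRS1* was at 139 and 116 CPM in WT and 114 and 99.1 CPM in A5-KO at 0 h, a log2 difference of -0.25 (SE 0.11, adjusted *p* = 0.24). In hILOs neither adaptor was called: *IRS1* was at 10.4 and 9.99 TPM in WT, against 9.58 and 11.4 TPM in A5-KO, and *IRS2* at 11.8 and 12.4 against 10.7 and 9.42 TPM (log2 difference -0.25, 95% interval -0.55 to 0.05, adjusted *p* = 0.22).

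The values of both adaptors lay lower in A5-KO at every time of Act D. *IRS1* was at 66.3 and 74.4 CPM in WT against 60.0 and 47.7 CPM in A5-KO after 1 h, at 47.5 and 95.5 against 38.6 and 35.3 CPM at 2 h, and at 65.2 and 62.1 against 22.1 and 20.6 CPM at 3 h. No library of the genotypes overlapped at any time, and the gap was widest at 3 h. *IRS2* was at 20.6 and 25.02 CPM in WT against 15.1 and 12.0 CPM in A5-KO after 1 h, at 14.9 and 29.1 against 10.1 and 9.44 CPM at 2 h, and at 23.5 and 20.2 against 6.79 and 4.87 CPM at 3 h. The A5-KO libraries were again below the WT libraries at every time. The log2 difference of *IRS1* was -0.86 at 2 h (SE 0.22, adjusted *p* = 0.019) and -1.57 at 3 h (SE 0.22, adjusted *p* = 7.7e-05), or 2.97-fold. That of *IRS2* was -1.09 at 2 h (SE 0.24, adjusted *p* = 0.010) and -1.90 at 3 h (SE 0.24, adjusted *p* = 4.4e-05), or 3.74-fold. At 2 h the WT replicates differed by about 1 on the log2 scale in both genes (1.01 and 0.97). Without the higher of them, WT replicate 2, the differences at 2 h were -0.36 for *IRS1* and -0.60 for *IRS2*, and neither was called. At 3 h both calls held in all 24 alternatives. Many of these left out a library of another time, which cannot move the 3 h difference and changes only the shared spread.

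**Figure D2:**
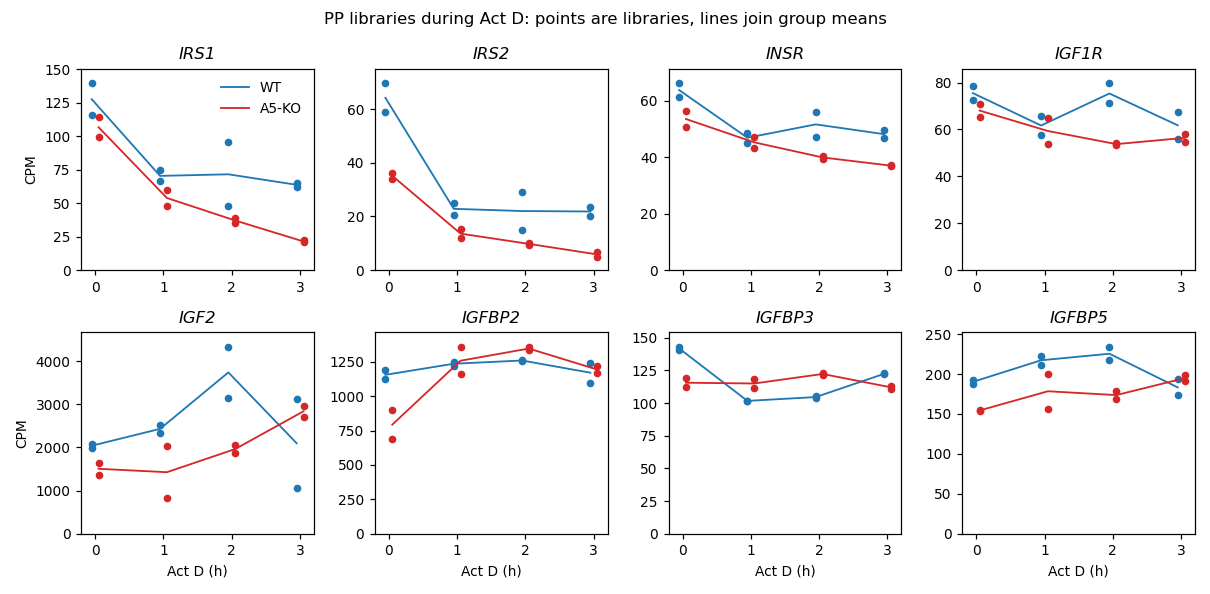
CPM of the 8 genes tested in PPs against hours of Act D, with 1 point for each library (2 per genotype and time) and lines through the group means; axes start at 0. *IRS1* and *IRS2* drop by 1 h in both genotypes and go on dropping in A5-KO, to 22.1 and 20.6 CPM and to 6.79 and 4.87 CPM, while *IGF2* shows split replicates in A5-KO at 1 h and WT at 3 h.

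The difference between genotypes at 3 h was itself larger than at 0 h for both adaptors. The interaction, which is the log2 genotype difference at a time minus that at 0 h, was -1.32 for *IRS1* (SE 0.31, adjusted *p* = 0.0085) and -1.04 for *IRS2* (SE 0.34, adjusted *p* = 0.044) at 3 h. At that time 17.2% of 13620 genes had a negative interaction past the limit and 1.69% a positive one, so 2 of 8 members was not far from the share of all genes. At 2 h no member had a negative interaction (0.184% of all genes), with -0.61 for *IRS1* and -0.22 for *IRS2* (adjusted *p* = 0.30 and 0.75).

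Slopes over 0 to 3 h of Act D describe a gene relative to the total of each library, because the spike-ins were removed from the CPM, and a slope of 0 means falling as fast as the total. In A5-KO, 3 members fell, *IRS1*, *IRS2* and *INSR*, against 37.1% of 13620 genes, and *IGFBP2* rose, against 7.44%. The slopes were -0.75 per h for *IRS1* (SE 0.08, adjusted *p* = 1.2e-05), -0.82 for *IRS2* (SE 0.12, adjusted *p* = 6.9e-05) and -0.18 for *INSR* (SE 0.04, adjusted *p* = 0.0029) on the log2 scale. They correspond to apparent half-lives of 1.34, 1.21 and 5.65 h relative to the total. In WT limma called no member in either direction, against 0.11% and 0.132% of all genes, with 3 falling and 0 rising at an unadjusted *p* below 0.05, and *IRS1* and *IRS2* had slopes of -0.30 and -0.48 (adjusted *p* = 0.31 and 0.24). The slopes of the genotypes were not called different for any member, against 2.61% of genes lower and 0.0661% higher, with 1 in each direction at an unadjusted limma *p* below 0.05, and edgeR called 0. The nearest was *IRS1*, at -0.44 (SE 0.12, adjusted *p* = 0.054), followed by -0.35 for *IRS2* (SE 0.17, adjusted *p* = 0.25). For the counts of members at the unadjusted limit, the share of all genes is not given. With another scaling of the libraries, by the median of ratios, the share of called genes that fell moved from 83.3% to 53.4% in A5-KO, and *INSR* was no longer called (slope -0.08, adjusted *p* = 0.077).

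The interval mattered to the slopes. Between 0 and 1 h *IRS2* fell at -1.49 per h in WT and -1.37 in A5-KO (SE 0.14 for each, adjusted *p* = 1.4e-06 and 3.7e-06), and *IRS1* at -0.85 and -0.99 (SE 0.12, adjusted *p* = 8.0e-05 and 2.2e-05). The differences between genotypes in this hour were 0.12 for *IRS2*, with an SE of 0.20, and -0.14 for *IRS1*, with an SE of 0.17. In WT 4 members fell in that hour (*IRS1*, *IRS2*, *INSR* and *IGFBP3*), against 25.5% of genes, and in A5-KO *IRS1* and *IRS2* did, against 30.2%, while *IGFBP2* rose, against 8.43%. From 1 to 3 h, a fit added after the data were seen, *IRS1* and *IRS2* went on falling in A5-KO at -0.66 (SE 0.11) and -0.61 (SE 0.13) per h, with adjusted *p* = 0.00067 and 0.0030. In A5-KO 18.5% of genes fell in this interval. In WT neither fell, with slopes of -0.07 (SE 0.11) and -0.03 (SE 0.13), and 0.052% of genes did. The slopes from 1 to 3 h differed between genotypes by -0.59 for *IRS1* (SE 0.15, adjusted *p* = 0.021) and -0.58 for *IRS2* (SE 0.18, adjusted *p* = 0.044), against 11.8% of genes.

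**Figure D3:**
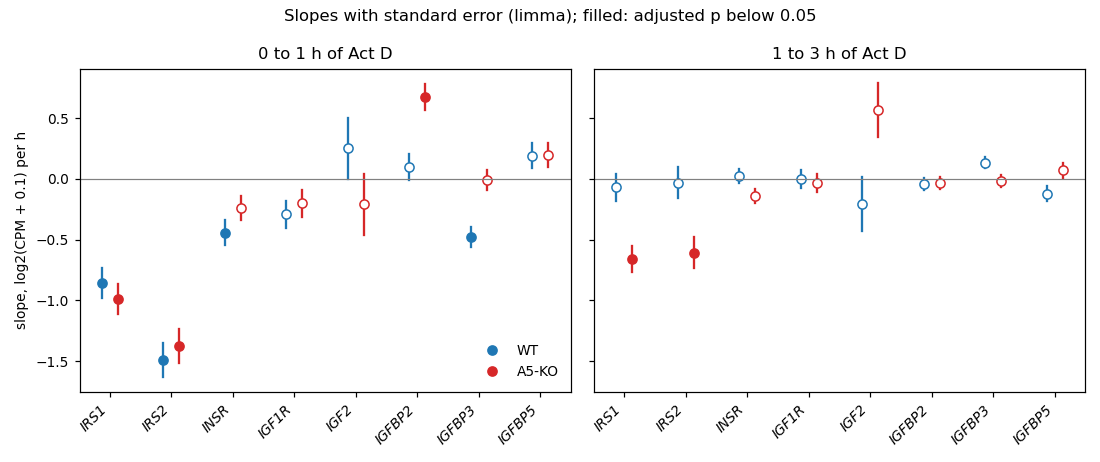
Slope of log2(CPM + 0.1) per h of Act D from 0 to 1 h (left) and from 1 to 3 h (right) for the 8 genes tested in PPs, by genotype, with bars of 1 standard error and filled symbols where the adjusted *p* was below 0.05. *IRS1* and *IRS2* fall in both genotypes in the early interval, and in the later one only in A5-KO, at -0.66 and -0.61.

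The pancreatic progenitor markers moved over the same hours. Their sum was 298 to 338 CPM in WT at 1 h, 200 to 447 CPM at 2 h and 362 to 373 CPM at 3 h, and in A5-KO it was 302 to 317, 148 to 154 and 93.9 to 109 CPM. At 3 h all 7 tested markers of this list were called lower in A5-KO, where 19.1% of all genes were. The library with the higher sum at 2 h in WT, replicate 2, was also the higher one for *IRS1* and *IRS2*. The part of these shifts in the *IRS1* and *IRS2* differences was not tested.

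Of the 4 binding proteins, 3 were called in hILOs. *IGFBP5*, which is held in the extracellular matrix, was at 112 and 107 TPM in WT, against 41.5 and 40.7 TPM in A5-KO, a log2 difference of -1.40 (SE 0.05, adjusted *p* = 0.0025) or 2.63-fold. *IGFBP2*, the neighbouring gene and a main carrier in fetal serum, was at 313 and 312 TPM in WT, against 179 and 174 TPM in A5-KO (-0.82, SE 0.04, adjusted *p* = 0.0031). Neither gene overlapped between genotypes, and both calls held in all 11 alternatives. *IGFBP1*, a carrier made by liver, went the other way: it was at 23.5 and 23.1 TPM in WT, against 43.5 and 48.1 TPM in A5-KO, a log2 difference of 0.94 (SE 0.08, adjusted *p* = 0.0085). This call was lost when any of 3 of the 4 libraries was left out (adjusted *p* from 0.053 to 0.065), with log2 differences of 0.87 to 0.96. *IGFBP3*, the main carrier in adult serum and the neighbour of *IGFBP1*, was at 1342 and 1351 TPM in WT, against 1448 and 1401 TPM in A5-KO, a log2 difference of 0.08 (95% interval 0.0031 to 0.16, adjusted *p* = 0.15).

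**Figure D4:**
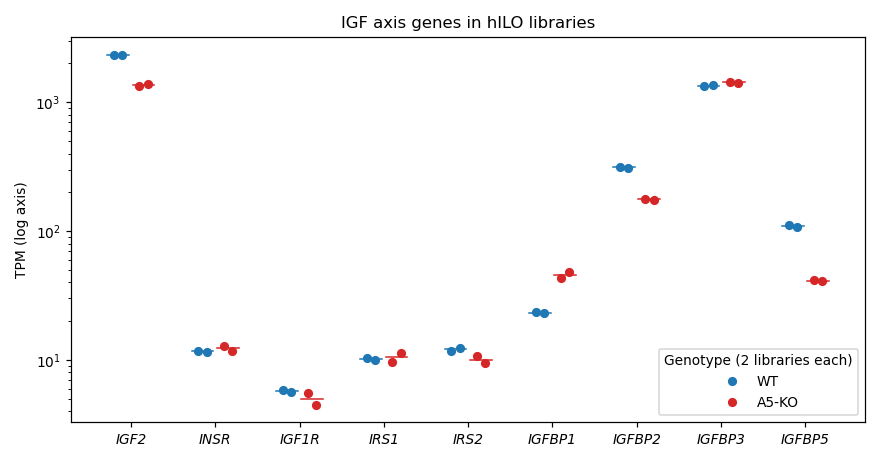
TPM on a log axis of 9 of the genes in the 4 hILO libraries, with points for libraries and short lines for the means of the 2 libraries of a genotype; *H19*, at most 0.10 TPM, is left out. *IGF2*, *IGFBP2* and *IGFBP5* are lower and *IGFBP1* is higher in A5-KO, and *IGFBP3* is at 1342 TPM or more in all.

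The hepatocyte markers stood higher in the same hILO libraries as *IGFBP1*. Their sum was 19738 to 20091 TPM in WT, against 32139 to 32426 TPM in A5-KO, with 3 of the 8 called higher (*TTR*, *ALB* and *TF*) and 1 called lower (*FGB*), and none at 0. The mesenchyme markers summed to 11.5 to 19.4 TPM in WT, against 49.3 to 54.5 TPM in A5-KO, with 3 of 5 tested called higher. Over all genes, 2.7% were called higher and 4.09% lower in this comparison. The part of either list in the binding protein differences was not tested.

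In PPs at 0 h the 3 tested binding proteins had lower values in A5-KO, each by less than 1.5-fold, and none was called. *IGFBP2* was at 1123 and 1189 CPM in WT and 687 and 900.0 CPM in A5-KO (log2 difference -0.55, SE 0.11, adjusted *p* = 0.023). *IGFBP5* was at 188 and 192 CPM in WT and 156 and 153 CPM in A5-KO (-0.30, SE 0.07, adjusted *p* = 0.0499). *IGFBP3* was at 141 and 143 CPM in WT and 112 and 119 CPM in A5-KO (-0.29, SE 0.08, adjusted *p* = 0.068). No library of the genotypes overlapped for these 3 genes. With 2 libraries against 2 this is a description only, and the share of all genes without overlap was not computed. *IGFBP1* had 47 reads in WT and 61 in A5-KO over 8 libraries each, a level of 0.18 and 0.23 CPM at which no difference was detectable (exact Poisson 95% intervals 34.5 to 62.5 and 46.7 to 78.4 reads).

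After Act D the *IGFBP2* difference closed. In WT the libraries stayed between 1098 and 1262 CPM at 1 to 3 h, and in A5-KO they were at 1162 and 1355 CPM at 1 h, 1357 and 1337 CPM at 2 h and 1167 and 1222 CPM at 3 h. The A5-KO libraries, which had been the lowest at 0 h, thus reached the WT level by 1 h. The interaction was 0.65 at 2 h (SE 0.15, adjusted *p* = 0.049) and 0.59 at 3 h (SE 0.15, adjusted *p* = 0.013). *IGFBP3* had an interaction of 0.52 at 2 h (SE 0.10, adjusted *p* = 0.018), when WT was at 105 and 104 CPM and A5-KO at 122 and 123 CPM. At 2 h, 0.822% of all genes had a positive interaction past the limit. The interaction of *IGFBP3* at 3 h was 0.17 (adjusted *p* = 0.26). *IGFBP2* rose over the course in A5-KO with a slope of 0.19 per h (SE 0.06, adjusted *p* = 0.013), and this rested on the 0 h libraries: it was 0.09 (adjusted *p* = 0.17) without A5-KO replicate 1 at 0 h, 0.18 (adjusted *p* = 0.051) without replicate 2, and -0.04 from 1 to 3 h. In the first hour its slope was 0.67 per h in A5-KO (SE 0.11, adjusted *p* = 0.00020) and 0.10 in WT (SE 0.11). *IGFBP3* fell in WT in that hour, at -0.48 per h (SE 0.08, adjusted *p* = 0.00034), and was at -0.01 in A5-KO. The slopes of this hour differed between genotypes by 0.58 for *IGFBP2* (adjusted *p* = 0.19) and 0.47 for *IGFBP3* (adjusted *p* = 0.14), neither called.

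Around these genes, the list of other IGF ligands, receptors and carriers held 13 genes. In hILOs 4 of 10 tested were called lower in A5-KO, against 4.09% of all genes, and none higher, against 2.7%, with a median log2 difference of -0.69 against -0.06 over all genes. The largest among genes at 10 TPM or more were *IGFBP4*, another carrier, from a mean of 20.7 to 8.67 TPM (log2 difference -1.17, SE 0.10), *STC1*, an inhibitor of the protease that frees IGF from its carriers, from 292 to 160 TPM (-0.87, SE 0.04), and *INS*. In PPs at 0 h none of 8 was called, where 1.13% of all genes were called lower and 1.57% higher, and the median was 0.02. At 1 h *IGFBP6*, a carrier that prefers IGF2, was higher in A5-KO, at a mean of 49.0 against 27.9 CPM (0.81, SE 0.14, adjusted *p* = 0.0025), and at 2 h at 45.3 against 28.2 CPM (0.68, adjusted *p* = 0.0074).

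Downstream of the receptors, the list of other adaptors and PI3K-AKT-mTOR genes had 31 members. In hILOs 3 of 28 tested were called lower, against 4.09% of all genes, and none higher, against 2.7%, with a median of -0.05. The lower ones included *SOCS3*, a feedback inhibitor of cytokine and insulin receptors, from 11.05 to 3.13 TPM (-1.55, SE 0.14), and *PIK3R1*, the regulatory subunit of PI3-kinase, from 18.6 to 11.3 TPM (-0.67, SE 0.10). In PPs at 0 h and 1 h none of 28 was called, where 1.13% and 1.24% of all genes were called lower and 1.57% and 3.05% higher. At 2 h 3 were called lower, against 4.85% of all genes, and none higher, against 2.69%. The lower ones included *TSC1*, an inhibitor of mTOR, at 24.0 against 38.8 CPM (-0.67, SE 0.15). At 3 h 13 of 28 were called lower and none higher, where 19.1% of all genes were called lower, with a median of -0.30 against -0.14 over all genes. Among those at 10 CPM or more in the higher genotype, the largest were *PIK3R1*, at 3.45 CPM in A5-KO against 18.1 CPM in WT (-2.35, SE 0.31), *FOXO3*, a transcription factor that AKT keeps out of the nucleus, at 3.49 against 11.7 CPM (-1.70, SE 0.29), and *PIK3R3*, another regulatory subunit, at 5.85 against 14.1 CPM (-1.25, SE 0.26).

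Genes known to be switched on by FOXO numbered 10. In hILOs 2 of 10 were called lower, against 4.09% of all genes, and none higher, against 2.7%. The lower ones included *G6PC1*, the last enzyme of glucose release, from 13.8 to 3.23 TPM (-1.81, SE 0.13). In PPs at 0 h 1 of 9 was called lower, against 1.13% of all genes, and none higher, against 1.57%. It was *PCK1*, an enzyme of gluconeogenesis, at 6.62 against 11.1 CPM (-0.67, SE 0.15, adjusted *p* = 0.041). At 3 h 6 of 9 were called lower, against 19.1% of all genes, with a median of -0.73 against -0.14, led among those at 10 CPM or more by *CITED2*, a transcriptional coregulator, at 6.95 against 17.0 CPM (-1.28, SE 0.22). In A5-KO all 9 fell over the course, against 37.1% of all genes, with a median slope of -0.47 per h against -0.08 over all genes. In WT all 9 slopes were below 0 too, with a median of -0.22 against -0.03 over all genes, and none was called. The slopes of the genotypes were called different for 1 of 9, lower in A5-KO, against 2.61% of all genes.

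The list of imprinted growth genes had 18 members, 2 of which are also in a list above. In hILOs 2 of 13 were called lower, against 4.09% of all genes, and 1 higher, against 2.7%. *DLK1*, an imprinted Notch-like ligand, went from 176 to 76.5 TPM (-1.19, SE 0.04), *GNAS*, the stimulatory G protein subunit, from 1612 to 733 TPM (-1.14, SE 0.06), and *PEG10*, a retroviral-like placental gene, was higher at 113 against 75.0 TPM (0.59, SE 0.05). In PPs none of 15 was called at 0 h, where 1.13% of all genes were called lower and 1.57% higher. *MEG3*, a maternally expressed non-coding RNA, was lower at 1 h at 11.3 against 19.2 CPM (-0.77, SE 0.20) and at 2 h at 11.8 against 21.8 CPM (-0.89, SE 0.20). Of the 3 IGF2 mRNA-binding proteins, *IGF2BP3* was lower in A5-KO hILOs at 18.4 against 28.5 TPM (-0.60, SE 0.11, adjusted *p* = 0.046), and none was called in PPs at any time.

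The following features of the mature RNAs were read from the canonical GENCODE transcripts. The 3′ untranslated region was 4960 bases long in *IRS1*, 3609 in *IRS2*, 4791 in *INSR* and 7088 in *IGF1R*, against a median of 1396 over 12090 coding genes, and 332 in *IGFBP2*. The pentamer ATTTA, a core of AU-rich decay elements, occurred 12, 11 and 10 times in *IRS1*, *IRS2* and *INSR*, which per kb is more than in 62.7%, 73.1% and 56.5% of genes. The other coding members had it too: the 12 copies of *IGF1R* are per kb more than in 49.3% of genes, the 7 of *IGFBP5* more than in 45.7%, the 5 of *IGFBP1* more than in 98.7%, the 2 of *IGFBP3* more than in 40.6%, and the single copies of *IGFBP2* and *IGF2* more than in 72.5% and 25.7%. GGACT, a common sequence at m6A sites, was present in every one of the 10 transcripts, at 9, 7 and 7 copies in *IRS1*, *IRS2* and *INSR*, which per kb is more than in 50.03%, 45.9% and 37.6% of genes. m6A itself was not analysed here.

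Over the 16 PP libraries, patterns were compared by Pearson's *r* of log2(CPM + 0.1) among 8920 genes whose mean reached 10 CPM. The genes nearest to *IRS2* were *DAB2* (*r* = 0.99), *PELI2* (0.98) and *FRMD4B* (0.98), and *IRS1* was at rank 11 (0.98) and *INSR* at rank 100 (0.96). Those nearest to *IGF2* were *MAP4* (0.96), *CDC42BPB* (0.96) and *PTPRS* (0.955), whereas *IGFBP5* was at rank 112 (0.80) and *IRS2* at -0.08. *MAP4* was lower in the same libraries in which *IGF2* was low: it was at 138 against 172 CPM in A5-KO at 1 h and 155 against 180 CPM in WT at 3 h. It was picked for its likeness to *IGF2* over these same libraries, so this is not a separate observation. The libraries share genotype and time of Act D, so these values describe likeness over the course and carry no test.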

How the data were processed

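RNA-seq of hILOs (4 libraries) and of Act D-treated PPs (16 libraries) was examined. Per the labels and the study's methods, the authors trimmed reads with fastp, aligned them with HISAT2 2.1.0 to hg38 and obtained the deposited TPM of hILOs with StringTie. The authors deposited CPM for PPs, from which the ERCC spike-ins are absent, and the read counter and annotation release are not given in the sources used here. CPM divided by the smallest value above 0 in its library, taken as 1 read, gave whole reads for 100% of values (within 0.01 read, or 1e-05 of the value where that is larger).

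Members were matched by Ensembl identifier (GENCODE annotation, GRCh38). The members and lists were chosen with earlier results of these data known. limma 3.58.1 (R 4.3.3, moderated with a trend) was fitted to all genes with a mean of at least 1, on log2(TPM + 1) in hILOs, log2(CPM + 1) in PPs at 0 h and log2(CPM + 0.1) over the Act D course, so that fold changes of low genes are understated. Slopes were fitted per genotype on 0, 1, 2 and 3 h. *p*-values were adjusted by Benjamini-Hochberg over all genes tested. A gene was called at adjusted *p* below 0.05 and, between genotypes, over 1.5-fold. Beside the members, up to 3 called genes per list and direction were named, if their group mean reached 10 in either genotype. Alternatives were other pseudocounts, filters, scalings and time ranges, robust moderation, a replicate block, each library left out, and, on whole reads, the count tests of edgeR 4.0.16 and DESeq2 1.42.0. The fits were tested on simulated data.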

Additional observations from a re-analysis of the deposited data

Results flagged for a closer look

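For 4 genes the genotype difference in PPs after Act D departed from that at 0 h by the limma interaction. *IGFBP2* had an interaction of 0.65 at 2 h (adjusted *p* = 0.049) and 0.59 at 3 h (adjusted *p* = 0.013) on the log2 scale, its A5-KO libraries being low at 0 h alone. Those 0 h replicates were further apart than 94.8% of 8920 genes, and no library was left out of the interaction fit. *IRS1* had -1.32 and *IRS2* -1.04 at 3 h, and *IGFBP3* had 0.52 at 2 h. The interaction was added after the data were seen, and the progenitor markers, whose sums also parted between genotypes at 2 h and 3 h, were not used to adjust it.

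The values of *IGFBP3* also lay in opposite directions at the 2 stages, although neither difference was called (limma adjusted *p* = 0.15 in hILOs and 0.068 in PPs at 0 h). Its log2 genotype difference was 0.081 in hILOs, where both A5-KO libraries were above both WT libraries, and -0.29 in PPs at 0 h, where both were below. The difference between the stages was not tested, because the values come from separately made tables in different units.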

How the results depend on the processing

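Over all comparisons 1426 values of the members were recomputed under the alternatives, and 1365 kept their direction and their side of the limit, 17 lost it, 41 gained it and 3 reversed; a value whose unadjusted *p* was 0.05 or more was taken to have no direction to lose, and 63 values changed sign in all. The calls of *IRS1* and *IRS2* at 3 h and of *IGF2*, *IGFBP2* and *IGFBP5* in hILOs held in every alternative run (24 and 11). Leaving out a library of another time cannot move a genotype difference at 1, 2 or 3 h. Such runs change only the shared spread, and they count among the values that kept their side. Slopes on part of the course gave the reversals: *INSR* in WT was 0.019 from 1 to 3 h, *IGF2* in A5-KO -0.21 from 0 to 1 h and *IGFBP2* in A5-KO -0.036 from 1 to 3 h. Members called lower numbered 0 at 0 h with all 16 libraries in one fit and 2 with median-of-ratios scaling (1 in the report), 1 at 1 h with that scaling, edgeR or DESeq2 (0 in the report), and 1 at 2 h with no filter (2 in the report). With that scaling, 221 of all genes were called lower at 0 h and 212 at 1 h (157 and 169 in the report). Members falling in WT numbered 4 from 0 to 1 h and 3 from 0 and 3 h alone. Members rising in A5-KO numbered 3 with median-of-ratios scaling, where 3188 of all genes rose (1013 in the report). They numbered 3 from 0 and 3 h alone (11.5% of all genes) and 0 from 1 to 3 h (2.2%). Without 2 h they numbered 0, and without the low *IGF2* libraries 2. Slopes differed, lower in A5-KO, for 1 member at a mean of at least 10 and without 2 h. They were lower for 2 from 0 and 3 h alone (19.9% of all genes) and from 1 to 3 h (11.8%). They were higher for 2 from 0 and 3 h alone (2.11%). With single libraries left out, members called higher ranged from 0 to 1 in hILOs and at 3 h, members called lower from 1 to 2 at 0 h, 0 to 1 at 1 h and 0 to 3 at 2 h, members rising in A5-KO from 0 to 3 and slope differences from 0 to 1. The cause was not tested. With the replicate number as a block, 3 members were called lower and 1 higher in hILOs, 1 lower at 0 h and 2 lower at 2 h and 3 h, as without it, while genes called over the whole table went to 385 lower and 289 higher in hILOs (707 and 467 without it), 266 and 365 in PPs at 0 h (157 and 218), 8 and 9 for WT slopes (15 and 18) and 0 and 0 for slope differences (355 and 9). Deviations of same-numbered libraries correlated at -0.255 to 0.181 between PP groups, with the highest value between WT and A5-KO at 0 h. Whether the numbers pair the libraries cannot be told from these values. Scaling by the median of ratios moved the share of calls that were lower from 64.3% to 48.3% at 2 h, and at 3 h from 93.9% to 84.2% and for WT slopes from 45.5% to 30%; the median of all genes at 2 h and 3 h, -0.12 and -0.14, went to -0.02 and -0.01. Over all alternatives the genes called lower and higher in the whole table ranged from 96 to 714 and 83 to 572 in hILOs, 77 to 266 and 87 to 365 in PPs at 0 h, 60 to 398 and 189 to 515 at 1 h (169 and 415 in the report), 122 to 2064 and 171 to 508 at 2 h (661 and 367), 1700 to 2701 and 81 to 421 at 3 h (2605 and 168), 0 to 3512 and 0 to 293 for WT slopes, 2488 to 5747 and 296 to 3188 for A5-KO slopes (5054 and 1013), and 0 to 2739 and 0 to 290 for slope differences. TPM keep no depth, and *H19* and *IGFBP1* in PPs were limited by their few reads.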
